A study of Mus musculus with 3 samples.

Results

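The 4 metallothionein genes of the mouse, Mt1, Mt2, Mt3 and Mt4, were followed through the regions of the pregnant uterus at day 7.5. They were found by symbol among the 32285 genes of each matrix, and each of the 4 symbols named a single row. Mt1 and Mt2, the pair known to be made in most cells, were set against Mt3 and Mt4 within each region. The sections came from females that had been mated with stud males, and the labels name neither a strain, a genetic change nor a drug, so all sections belonged to 1 group of uteri at pregnancy day 7.5. Frozen sections were laid on 10x Visium slides, whose barcoded spots each capture polyadenylated RNA from a small patch of tissue with cells of several kinds. The 3 libraries held replicates 1 and 2 together in a single matrix, called the mixed library from here on, replicate 3, and replicate 4. The mixed library counted as 1 replicate, so no value has more than 3 libraries behind it.

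Metallothioneins are small cytosolic proteins rich in cysteine that bind zinc and copper and can take up cadmium, and they buffer the free zinc of a cell. Transcription of Mt1 and Mt2 is raised by zinc through the zinc-sensing factor MTF1, which binds metal response elements in their promoters, and also by glucocorticoids and by oxidative stress. Mt3 is best known from neurons and Mt4 from stratified squamous epithelium, while high Mt1 and Mt2 transcript levels in the mouse decidua are known from earlier work.

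The 4 genes lie side by side on chromosome 8 of GRCm38, all on the plus strand and all annotated as protein coding in GENCODE M21. Mt4 (ENSMUSG00000031757) spans chr8:94137197-94139031 and Mt3 (ENSMUSG00000031760) spans chr8:94152607-94154146. Mt2 (ENSMUSG00000031762) spans chr8:94172664-94173568 and Mt1 (ENSMUSG00000031765) spans chr8:94179082-94180327. The cluster covers 43131 bases, with gaps of 13575 bases between Mt4 and Mt3, 18517 between Mt3 and Mt2 and 5513 between Mt2 and Mt1. Of the words of 50 bases in the annotated transcripts of the members, 0 occurred in a transcript of another gene.

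The 250 bases before each RefSeq start (GRCm38.p6, plus strand) are shown because all 4 genes share a neighbourhood while their levels differed between regions. Capitals mark matches to the core of the metal response element, searched as TGCACNC or TGCGCNC on both strands. The windows are chr8:94136954-94137203 for Mt4, chr8:94152357-94152606 for Mt3, chr8:94172368-94172617 for Mt2 and chr8:94178839-94179088 for Mt1.
Mt4: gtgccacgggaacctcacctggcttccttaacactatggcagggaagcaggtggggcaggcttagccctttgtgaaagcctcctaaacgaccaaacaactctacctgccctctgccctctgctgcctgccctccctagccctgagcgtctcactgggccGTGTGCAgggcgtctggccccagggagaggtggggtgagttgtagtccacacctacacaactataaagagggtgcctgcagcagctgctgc
Mt3: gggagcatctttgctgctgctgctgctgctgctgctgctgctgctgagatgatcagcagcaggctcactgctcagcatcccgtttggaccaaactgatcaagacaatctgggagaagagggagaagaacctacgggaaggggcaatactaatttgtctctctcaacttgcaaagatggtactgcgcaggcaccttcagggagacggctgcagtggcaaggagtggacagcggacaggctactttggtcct
Mt2: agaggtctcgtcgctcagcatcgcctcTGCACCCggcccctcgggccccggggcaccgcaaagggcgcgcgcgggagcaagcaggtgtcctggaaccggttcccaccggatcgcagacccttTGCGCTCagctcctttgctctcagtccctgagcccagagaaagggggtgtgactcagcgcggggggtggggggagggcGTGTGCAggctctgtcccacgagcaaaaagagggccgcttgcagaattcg
Mt1: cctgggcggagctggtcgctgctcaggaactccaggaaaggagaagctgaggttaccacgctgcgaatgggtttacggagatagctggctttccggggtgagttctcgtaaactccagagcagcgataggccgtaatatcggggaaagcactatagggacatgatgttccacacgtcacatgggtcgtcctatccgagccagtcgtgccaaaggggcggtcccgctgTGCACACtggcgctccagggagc

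Mt2 held 3 core matches in its window, at -223, -128 and -50, Mt1 held 1 at -23, Mt4 held 1 at -91, and the letters were not in the Mt3 window. Of 32841 RefSeq promoter windows of the same length, 21.41% held at least 1 match and 1.264% held at least 3. A TATAAA on the sense strand stood at -30 in the Mt4 window, and 7.591% of all windows held these letters at any position. The G and C content was 60.4% for Mt4, 54.8% for Mt3, 67.6% for Mt2 and 58.8% for Mt1, against a median of 52.4% over all windows. Mt4 and Mt3 had 5 CpG sites each, and Mt2 and Mt1 had 21 and 17, against a median of 6.

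Several members have further annotated starts downstream of the RefSeq start, so the windows printed above can miss the promoter that is used. The GENCODE transcript Mt1-202 starts 152 bases further on, and the 250 bases before it held 5 core matches (TGCACAC at -175, TGCACTC at -150, TGCGCTC at -132, GGGTGCA at -68 and TGCGCCC at -54) and a TATAAA at -31. Only 0.08221% of the RefSeq windows held at least 5 matches. The transcripts Mt3-202 and Mt3-203 start 139 bases further on, with 3 core matches (TGCACAC at -112, GCGTGCA at -85 and TGCGCGC at -53) and a TATAAA at -33. Before Mt2-202, which starts 242 bases after the RefSeq start, 4 core matches were found. Mt4 has 1 annotated transcript, whose start lies within 7 bases of the RefSeq start. The data count transcripts and do not say which start was used, and a match in letters is a description and not a bound site.

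The matrices held 3978 spots, and 3939 of them with at least 1000 UMIs (unique molecular identifiers, counted molecules) were kept. The mixed library was the shallowest, with a median of 8038 UMIs per spot, against 26543 in replicate 3 and 28286 in replicate 4. Libraries shared 676 to 825 barcodes by pair, which in this assay mark slide positions and not cells. The spots fell into 11 regions by clustering on genes that included neither the members nor any listed gene, and all 11 were tested, with 33 sums of counts by region and library. In a spot, fewer cells of a type and less RNA per cell cannot be told apart.

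The tissue label held up against its defining markers, and the markers describe the regions in which the metallothioneins differed. The list of decidual genes summed highest in region 7 (led by Fabp4, Tnnc1 and Ntn5), at 181025 CPM, then in region 5 (Pyy, Mrgprg, Hsd3b6) at 41955 CPM and in region 1 (Psca, Olr1, Mab21l4) at 31049 CPM. The list of natural killer cell genes summed highest in region 2 (Spp1, Adgra1, Chn1), at 15400 CPM. The gland list summed highest in region 8 (Fxyd3, Cyp26b1, Prlr), at 8792 CPM, then in region 6 (Nppa, Tnni2, Fbxl22) at 3812 CPM. Smooth muscle genes were highest in region 11 (Fbxl22, Spock2, Pgm5), at 38684 CPM, and fibroblast genes in region 6 and region 3 (Cxcl12, Mmp17, Sfrp1). Trophoblast genes were highest in region 10 (Trap1a, Plet1, Cts7), at 5183 CPM. Region 4 (Scn3b, Pmaip1) and region 9 (Dppa1, Stmn2, Krt84) led none of these lists. In region 8 the test described below called higher 3 of 4 gland genes, 6 of 8 fibroblast genes, 7 of 7 pericyte genes and 7 of 11 macrophage genes, and the gland sum ran from 5223 to 12270 CPM over libraries. In region 1 it called 11 of 18 decidual genes higher and 1 lower, and 13 of 15 natural killer cell genes lower, with a decidual sum from 25202 to 37355 CPM. The part of these cells in the metallothionein values was not tested.

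Together the 4 members took 0.625% of all UMIs in the mixed library, 0.955% in replicate 3 and 0.891% in replicate 4. Mt1 made up most of this, at 77.4%, 83.6% and 78.4% of metallothionein UMIs in the same libraries, and Mt2 made up 14.1%, 9.68% and 11.7%. Mt3 took 4.24%, 4.43% and 5.75%, and Mt4 took 4.28%, 2.31% and 4.18%. Molecules were counted once each from captured transcript ends, so these shares are not divided by transcript length, and a difference in capture between genes was not tested.

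Levels below are TMM-scaled CPM (the gene's share of the summed counts, scaled to a common total after trimmed-mean normalization), and edgeR's quasi-likelihood test compared the log2 level in a region with the average over the remaining regions. A gene was called at an adjusted p (Benjamini-Hochberg) under 0.05 if its log2 fold change also reached 1 or -1. P-values rest on the spread among 3 libraries, pooled over all regions. The labels speak of biological replicates and do not say more of how the animals differed.

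Mt1 was the most abundant member in every region and was highest in region 1. There it had 11576 CPM in the mixed library, 20891 in replicate 3 and 17515 in replicate 4, and its log2 fold change was 2.17 ± 0.13 (SE, adjusted p = 4.91e-15). Region 7, where the decidual list summed highest, came next, with 9312, 25453 and 10307 CPM in the same libraries (1.94 ± 0.14, adjusted p = 4.08e-14). Replicate 3 thus stood far above the other libraries in region 7 and exceeded its own region 1, so the regions overlapped and their order was not the same in every library. Region 5 had 6234, 10738 and 8328 CPM and was also called (1.11 ± 0.15, adjusted p = 8.63e-08), but its value was 0.51 against the pooled other spots and 0.99 without the mixed library. The lowest levels of Mt1 were 957, 1465 and 1513 CPM in region 3 (-1.84 ± 0.19, adjusted p = 1.40e-09). Region 11 (-1.68), region 2 (-1.32) and region 9 (-1.16) were called lower as well, while regions 4, 6, 8 and 10 were not called, with values of 0.22, 0.07, 0.53 and -0.05. Region 8 was called with regions drawn on the other gene set, at 1.28. The call in region 9 was lost with regions drawn on the other gene set (-0.70) and at a finer clustering (-0.61). The mixed library had the lowest Mt1 level of the 3 libraries in all 11 regions.

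Mt2, the close partner of Mt1 in the cell and in the cluster, ran at a lower level with a similar order of regions. It was highest in region 1, with 2218 CPM in the mixed library, 2470 in replicate 3 and 2755 in replicate 4 (2.06 ± 0.14, adjusted p = 9.34e-14). All 3 of these values lay above every other value of Mt2 in any region. Region 7 had 1088, 1956 and 881 CPM (1.03 ± 0.16, adjusted p = 1.26e-06), but without replicate 3 its value was 0.72 and no longer passed, and without the mixed library it was 1.00 and fell just short. Region 8 had 1262, 1062 and 1504 CPM (1.02 ± 0.16, adjusted p = 4.76e-06), and it too missed the minimum fold change without the mixed library (0.83) and without the library block (0.98). Against the pooled other spots the values were 0.51 in region 7 (adjusted p = 0.0586) and 0.59 in region 8, so neither call held there. Mt2 was called lower in region 2 (-1.37), region 11 (-1.33) and region 3 (-1.15), and its values in regions 4, 5, 6, 9 and 10, from -0.86 to 0.47, were not called.

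Mt3 was also highest in region 1, but stood far further above the other regions than the pair did. It had 951 CPM in the mixed library, 2121 in replicate 3 and 2032 in replicate 4 (3.91 ± 0.19, adjusted p = 2.81e-17). Region 8, where the gland list summed highest in CPM, followed with 535, 967 and 1012 CPM (2.81 ± 0.22, adjusted p = 1.98e-12). In every library region 1 was above region 8 and region 8 above region 6, which had 255, 697 and 653 CPM (2.03 ± 0.24, adjusted p = 2.99e-08). Region 7 was called as well, with 242, 525 and 339 CPM (1.54 ± 0.24, adjusted p = 2.17e-06). Against the pooled other spots, a reference in which region 1 weighs heavily, the value was 0.47 for region 6 and -0.050 for region 7. The lowest mean level was in region 2, the region of natural killer cell genes, although replicate 3 had slightly less in region 3 (12.4 CPM). In region 2 7, 104 and 91 UMIs gave 3.16, 14.3 and 20.8 CPM (-3.84 ± 0.38, adjusted p = 6.07e-10). Mt3 was called lower in region 3 (-2.09), region 4 (-1.81) and region 9 (-1.03), and it was not called in regions 5, 10 and 11 (-0.48, -0.94 and -0.10). The value of region 9 did not pass without replicate 3 (-0.56) or without the library block (-0.93), and it was -0.02 with regions drawn on the other gene set.

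Mt4 was the one member with its highest level outside region 1. In region 8 it had 1618 CPM in the mixed library, 1159 in replicate 3 and 2030 in replicate 4 (4.70 ± 0.21, adjusted p = 1.69e-18). Region 1 followed with 656, 1006 and 1213 CPM (3.89 ± 0.22, adjusted p = 5.59e-16). In each library region 8 was above region 1, although the level in replicate 3 in region 8 lay below that of replicate 4 in region 1. Region 6 had 510, 572 and 824 CPM (3.22 ± 0.25, adjusted p = 1.71e-12) and was below region 1 in each library. Region 11, where smooth muscle genes were highest, had 80.5, 146 and 344 CPM (1.23 ± 0.33, adjusted p = 0.00312). This call rested on replicate 4, without which the value was 0.83, and it turned to -0.67 against the pooled other spots. In region 7, where Mt1 was high, Mt4 had 61.4, 171 and 123 CPM and was not called (0.57 ± 0.31, adjusted p = 0.118). Its value there depended on the setting. Against the pooled other spots it was -1.29. At a finer and a coarser clustering Mt4 was called higher, at 2.08 and 2.88, in matched regions that shared only part of the spots of region 7. In region 2 a total of 4, 8 and 18 UMIs of Mt4 gave 1.81, 1.10 and 4.12 CPM (-5.75 ± 0.54, adjusted p = 1.24e-10). Mt4 was also called lower in region 4 (-2.24), region 5 (-1.57), region 9 (-1.504), region 3 (-1.49) and region 10 (-1.06). Region 3 did not pass without replicate 3 (-0.94) or without replicate 4 (-1.16, adjusted p = 0.0937), and region 10 did not without replicate 4 (-0.86) or without the mixed library (-0.93). With regions drawn on the other gene set, Mt4 in region 9 turned to 0.14 and region 5 moved to -0.79.

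**Figure D1:**
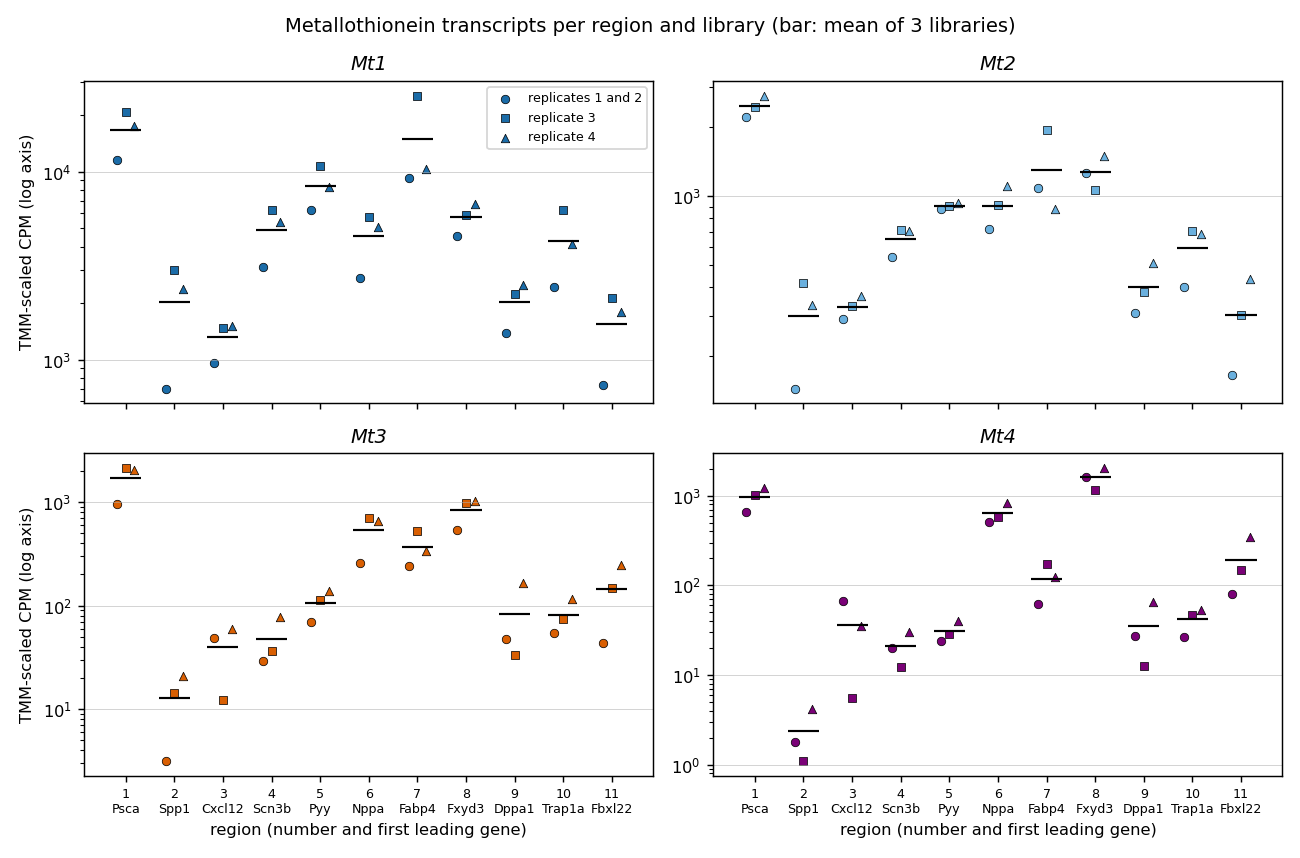
TMM-scaled CPM (log axis) of each metallothionein in the 11 regions, with 1 point per library and a bar at the mean of 3 libraries. Mt1 and Mt2 spanned about a single order of magnitude between regions, while Mt3 and Mt4 reached their lowest levels in region 2 and had their highest levels in regions 1 and 8.

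The range between regions separated the pair from the other members. The highest regional mean was 12.7 times the lowest for Mt1 and 8.32 times for Mt2, against 133 times for Mt3 and 685 times for Mt4. Within single libraries the range was 11.6 to 17.4 times for Mt1, 8.13 to 15.4 times for Mt2, 97.6 to 301 times for Mt3 and 493 to 1056 times for Mt4. The ranges of Mt1 and Mt2 overlapped with each other, and those of Mt3 and Mt4 lay above both and apart from each other. The lowest levels of Mt3 and Mt4 rest on few UMIs, so these ratios carry a large counting error.

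In order of mean level Mt1 ran through regions 1, 7, 5, 8, 4, 6, 10, 9, 2, 11 and 3. Neighbours in that order were taken to differ beyond their spread where the log2 difference had the same sign in all 3 libraries and its mean exceeded its SD. That held for 4 of 10 neighbour pairs of Mt1 (7 over 5, 5 over 8, 4 over 6 and 10 over 9). Regions 1 and 7 did not differ in this way, with log2 differences between -0.28 and 0.77. The order of Mt2 was 1, 7, 8, 6, 5, 4, 10, 9, 3, 11 and 2, with 5 of 10 pairs beyond their spread, among them region 1 over 7. The order of Mt3 was 1, 8, 6, 7, 11, 5, 9, 10, 4, 3 and 2, and its 4 upper steps and that of region 10 over 4 went beyond the spread. The order of Mt4 was 8, 1, 6, 11, 7, 10, 3, 9, 5, 4 and 2, with 6 of 10 pairs beyond their spread, including 8 over 1, 1 over 6 and 4 over 2. With 3 libraries an exact permutation test over signs cannot give a p below 0.25, so the steps are descriptions.

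Counted by region, all 4 members were called higher in region 1, where 16.4% of 6312 tested genes were called (6.45% higher and 9.98% lower). All 4 were called lower in region 2, where 16.5% of genes were called (9.06% higher and 7.43% lower), and in region 3, where 18.9% were (13% higher and 5.88% lower). In region 8 Mt2, Mt3 and Mt4 were higher, and 12.9% of genes were called (10.5% higher and 2.47% lower). In region 7 Mt1, Mt2 and Mt3 were higher, and 32.4% of genes were called (14% higher and 18.5% lower). In region 6 Mt3 and Mt4 were higher, and 16.3% of genes were called (12.7% higher and 3.66% lower). Region 4, with 13.5% of genes called (6.76% higher and 6.76% lower), had Mt3 and Mt4 lower. Region 5, with 24.9% called (14% higher and 10.9% lower), had Mt1 higher and Mt4 lower. Region 9, with 12.7% called (6.86% higher and 5.85% lower), had Mt1, Mt3 and Mt4 lower. Region 10, with 28.6% called (12.9% higher and 15.7% lower), had Mt4 lower. Region 11, with 25.7% called (15.3% higher and 10.4% lower), had Mt4 higher and Mt1 and Mt2 lower. Over the 11 regions Mt1 was higher in 3 and lower in 4, Mt2 was higher in 3 and lower in 3, Mt3 was higher in 4 and lower in 4, and Mt4 was higher in 4 and lower in 6. The calls of all 4 members in regions 1 and 2, and those of Mt3 and Mt4 in region 8, held under every alternative that was run, although the clusterings redrawn for some of these shared only part of the spots of region 1 (0.37 to 0.52 by the Jaccard index, the shared spots over the spots of either, and 0.83 at a minimum of 5000 UMIs). For regions 2 and 8 the index was 0.47 to 0.96. At a coarser clustering with 6 regions, regions 1 and 7 were matched to the same region, as were regions 3, 6 and 11, regions 4 and 9, and regions 5 and 10, and several values turned sign there. The median log2 fold change of all tested genes was -0.12 in region 7 and within 0.07 of zero in the other regions.

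**Figure D2:**
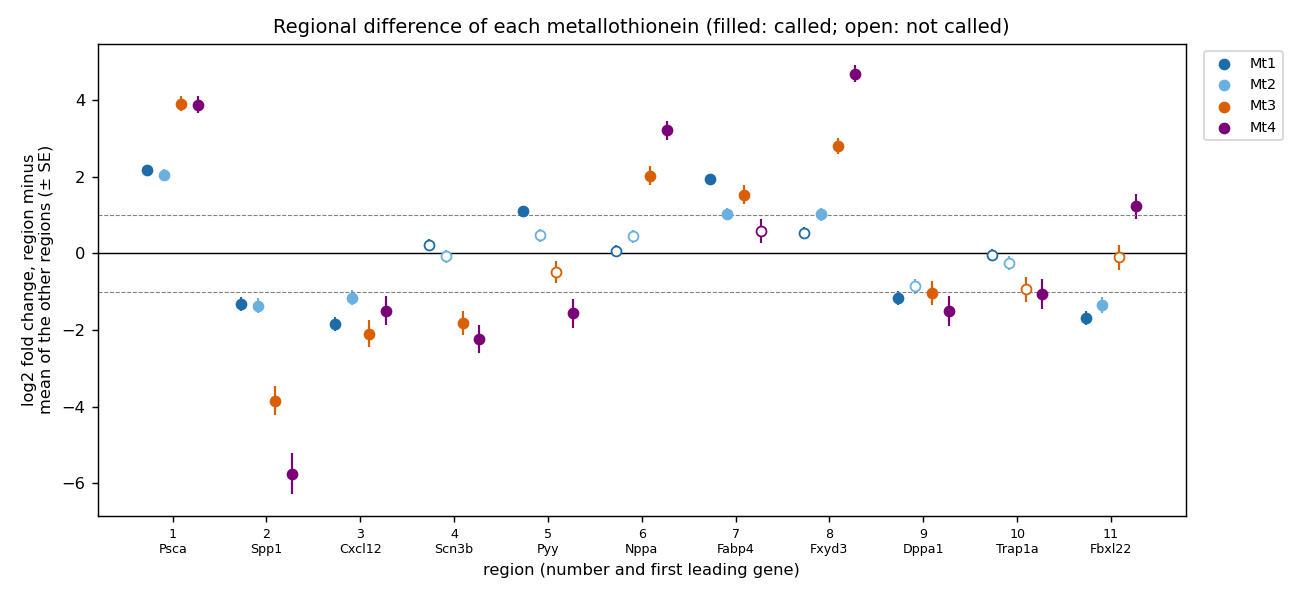
Log2 fold change of each metallothionein in each region over the mean of the other regions, with bars of 1 SE from the edgeR fit, dashed lines at the minimum of 1 in size, and open points where no call was made. Mt3 and Mt4 lay above Mt1 and Mt2 in regions 1, 6, 8 and 11 and below them in regions 2, 4, 5 and 10.

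The pair and the other members were then compared within regions, as a difference of log2 levels tested with limma. A positive value means that Mt3 or Mt4 stood higher relative to Mt1 and Mt2 summed in that region than in the mean of the others. The ratio of Mt4 to the pair was higher in region 8 (4.18 ± 0.30, adjusted p = 3.96e-16), region 6 (3.17), region 11 (2.81) and region 1 (1.78). It was lower in region 2 (-4.28), region 5 (-2.51), region 4 (-2.37) and region 7 (-1.23). Of these, region 7 no longer passed without the mixed library (-0.84), with regions drawn on the other gene set (-0.79) or at a finer clustering (-0.08). The ratio of Mt3 to the pair was higher in region 8 (2.29 ± 0.26, adjusted p = 5.13e-10), region 6 (1.95), region 1 (1.80) and region 11 (1.46). It was lower in region 2 (-2.68), region 4 (-1.94) and region 5 (-1.42), of which region 5 was lost with regions drawn on the other gene set (-0.87). In region 11 the pair itself was lower, and in region 1 all members were higher, so the same sign of the ratio went with different levels. The shares of all tested genes with a call against the same pair ran from 14.3% (region 4) to 95.2% (region 1). They were 23.5% in region 8, 17.3% in region 6, 78.9% in region 2, 58.2% in region 5, 84.8% in region 7 and 78.8% in region 11. Neither ratio was called in regions 3, 9 and 10, where the shares were 88.2%, 62.9% and 29.4%. With regions drawn on the other gene set, however, both ratios were called lower in region 3 (-1.21 for Mt3 and -1.62 for Mt4), as at resolution 1.0 (-1.39 and -1.81), and so was that of Mt3 without the mixed library (-1.02). Without replicate 3 the ratio of Mt4 was called lower in region 10 (-1.16). The high shares arise where the pair itself differs, so these calls say only that the genes compared differ from each other.

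Mt1 and Mt2 did not part in the same way. The log2 ratio of Mt1 to Mt2 passed the minimum of 1 in size in 0 of 11 regions, where 13.7% to 94.6% of genes did against Mt2. Its adjusted p by limma was under 0.05 in 4 regions, all with a difference below the minimum size. These were region 7 (0.92 ± 0.21, adjusted p = 9.73e-05), region 5 (0.63, 0.00954), region 3 (-0.70, 0.00211) and region 8 (-0.49, 0.0310). In counted molecules there were 11.1 ± 2.29 Mt1 UMIs per Mt2 UMI in region 7 (SD, n = 3) and 3.95 ± 0.59 in region 3. Region 7 was thus the region richest in Mt1 relative to Mt2.

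The ratio of Mt3 to Mt4 was lower in region 8 (-1.89 ± 0.47, adjusted p = 5.99e-05), region 11 (-1.34) and region 6 (-1.23), and higher in region 2 (1.60) and region 5 (1.09). Of all tested genes 99.3%, 52.9%, 95.7%, 99.8% and 66.3% were called against Mt4 in those regions. There were 2.08 ± 0.91 Mt4 UMIs per Mt3 UMI in region 8, 1.36 ± 0.60 in region 6 and 1.42 ± 0.44 in region 11. In region 1 there were 0.587 ± 0.108, so Mt3 outnumbered Mt4 there. Without replicate 4, the values of region 6 (-1.21, adjusted p = 0.121) and region 11 (-1.30, adjusted p = 0.276) did not pass. With regions drawn on the other gene set the ratio of region 2 was 0.60. In region 5 the ratio did not pass without the mixed library (0.95), without replicate 4 (1.11, adjusted p = 0.248) or without the library block (adjusted p = 0.0838).

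As shares of the metallothionein molecules in a region, Mt4 took 17.0% ± 3.86 in region 8, 10.03% ± 2.55 in region 6 and 8.48% ± 3.45 in region 11 (SD, n = 3 each). It took 4.405% ± 0.69 in region 1 and 0.132% ± 0.092 in region 2. Mt3 took 8.77% ± 1.97 in region 8, 7.78% ± 1.502 in region 6, 7.61% ± 1.28 in region 1, 6.11% ± 2.36 in region 11 and 0.516% ± 0.212 in region 2. The lowest Mt4 share in region 8, 12.8%, lay above the highest in region 6, 12.1%, and above the highest in region 11, 12.2%. Mt1 made up 60.6% ± 3.94 in region 8, and 88.7% ± 1.79 in region 7. All members together took 2.01% ± 0.49 of the UMIs in region 1, 1.202% ± 0.79 in region 7, 0.964% ± 0.153 in region 8 and 0.195% ± 0.036 in region 3.

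**Figure D3:**
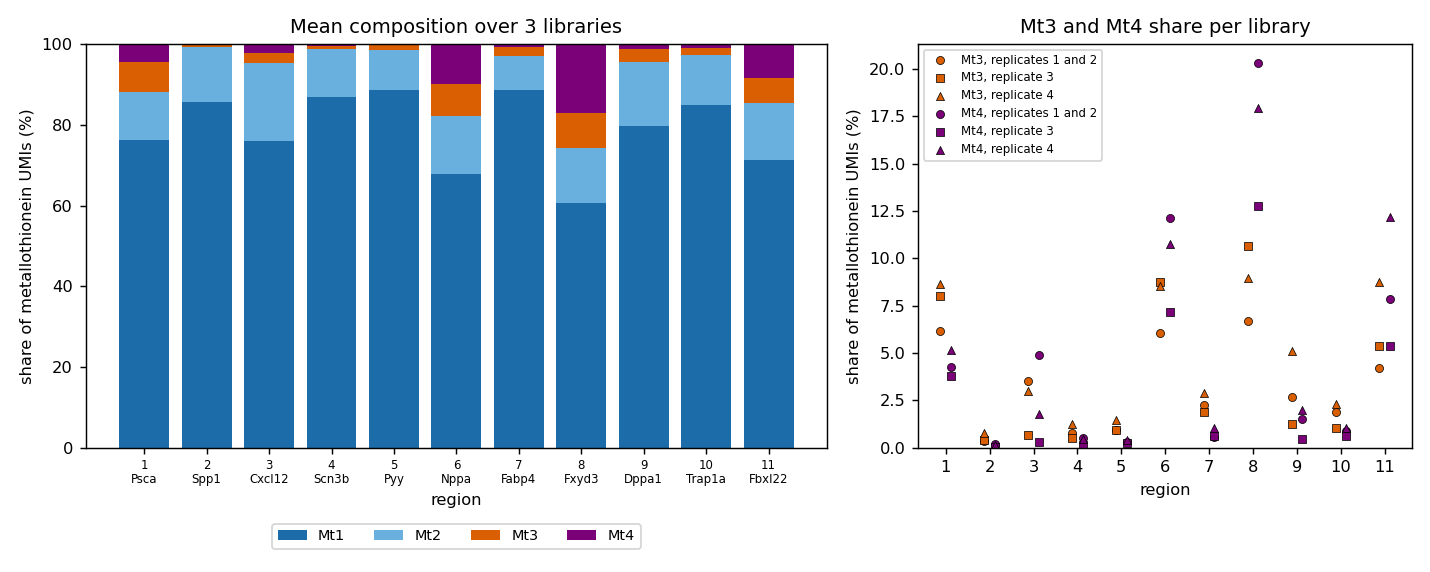
Left, the share of each member among the metallothionein UMIs of a region (mean of 3 libraries); right, the shares of Mt3 and Mt4 in each library (%). Mt4 took 12.8% to 20.3% in region 8, and Mt3 took 0.516% and Mt4 0.132% in region 2.

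Seen from the gene, region 1 held 72.4% ± 5.18 of all Mt3 UMIs and 58.7% ± 12.3 of all Mt4 UMIs (SD, n = 3). It held 43.7% ± 2.56 of the Mt1 UMIs and 45.6% ± 3.48 of the Mt2 UMIs, against 18.8% ± 1.41 of the UMIs of all genes. Region 8 held 25.9% ± 9.50 of the Mt4 UMIs, 9.43% ± 2.34 of Mt3, 6.27% ± 2.44 of Mt2 and 4.13% ± 1.64 of Mt1, against 4.47% ± 1.33 of all UMIs. Region 2 held 15.8% ± 7.36 of all UMIs but 0.550% ± 0.374 of Mt3 and 0.128% ± 0.037 of Mt4. Region 7 held 11.7% ± 2.43 of Mt1 and 2.20% ± 0.55 of Mt4, against 8.51% ± 3.35 of all UMIs. There Mt4 was below the share of all UMIs in each library, and Mt1 above it in the mixed library and replicate 3 but not in replicate 4.

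**Figure D4:**
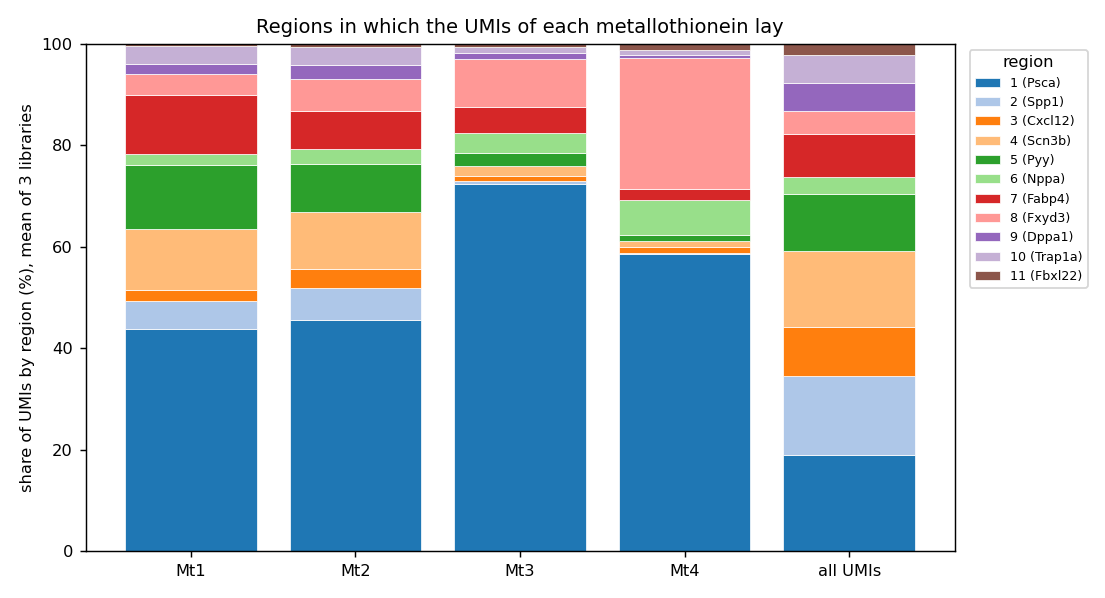
Share of the UMIs of each metallothionein, and of all genes, that lay in each region (%, mean of 3 libraries). Region 1 held 72.4% of Mt3 and 58.7% of Mt4 UMIs, and region 8 held 25.9% of Mt4 UMIs against 4.47% of all UMIs.

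Shares of spots were compared after each spot had been thinned to 3000 UMIs, which left out 206 spots of the mixed library and 3 of each other library. At that depth Mt1 was found in 97.9% ± 2.27 of spots, Mt2 in 78.5% ± 3.07, Mt3 in 36.8% ± 3.65 and Mt4 in 28.1% ± 3.17 (SD, n = 3). Without thinning the shares were 99.5%, 95.4%, 59.6% and 49.4%. Mt1 was in all thinned spots of regions 1, 5 and 7 in every library. Mt3 was in 91.7% ± 3.14 of spots of region 1, 78.1% ± 6.71 of region 8, 70.1% ± 21.5 of region 6 and 46.2% ± 13.2 of region 7. Mt4 was in 84.7% ± 2.93 of spots of region 8, 71.0% ± 13.9 of region 6, 65.3% ± 4.58 of region 1 and 20.3% ± 4.98 of region 7. In region 2 Mt3 was in 4.55% ± 4.42 and Mt4 in 0.917% ± 0.630 of spots. Free RNA on the slide can put single molecules into any spot, and the low shares in region 2 include whatever reached it. In region 2 median depths were 14738, 31893 and 20810 UMIs per spot, above the 6249, 13684 and 20697 of region 8.

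**Figure D5:**
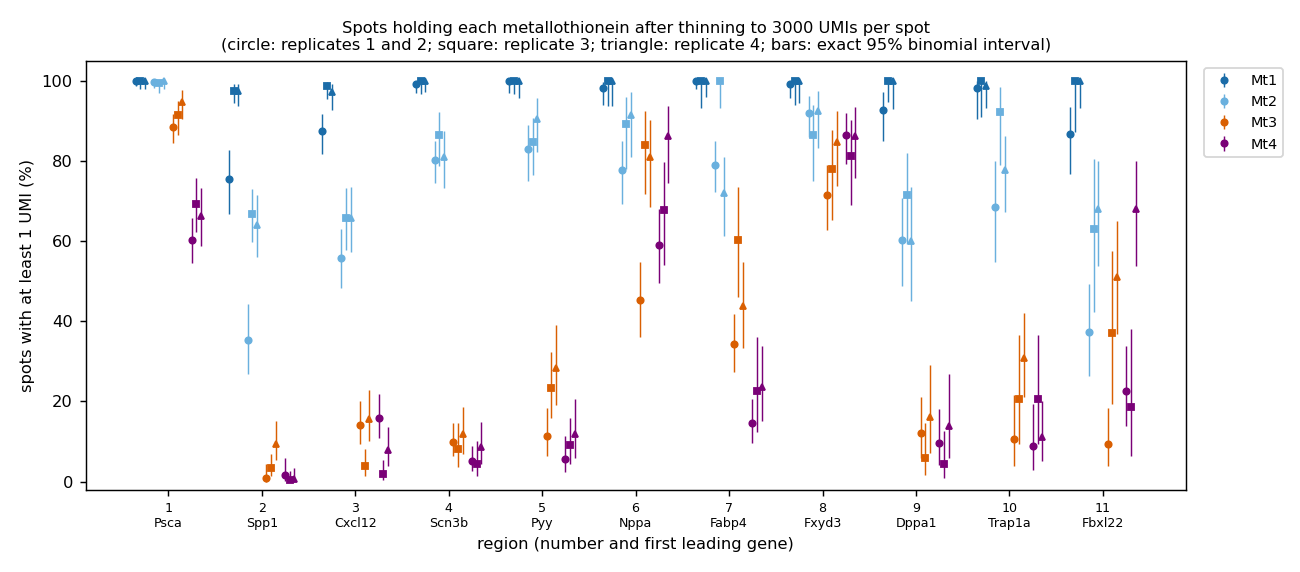
Share of spots (%) with at least 1 UMI of each member after thinning to 3000 UMIs, per region and library, with exact 95% binomial intervals that cover counting error only. Mt1 was in at least 75.4% of spots in every region and library, whereas Mt4 ran from 59.0% to 86.5% in regions 1, 6 and 8, from 18.5% to 67.9% in region 11 and no higher than 23.6% in the other regions.

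Across thinned spots the members were counted together to different degrees. Spearman's rho was 0.69 between Mt1 and Mt2 and 0.61 between Mt3 and Mt4, as means over 3 libraries. It was 0.59 between Mt1 and Mt3, 0.57 between Mt2 and Mt3, 0.44 between Mt2 and Mt4 and 0.40 between Mt1 and Mt4. Within single regions the medians were lower, 0.37 for Mt1 with Mt2 and 0.26 for Mt3 with Mt4, so much of each value lay between regions. Of the spots with Mt4, 78.7% ± 7.62 also held Mt3, and of the spots with Mt3, 59.8% ± 1.24 also held Mt4. Spots that held Mt4 without Mt3 made up 8.79% of the mixed library, 3.71% of replicate 3 and 5.72% of replicate 4. These values are descriptions over spots that share a library, at 1 depth.

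Region 8 was searched further, by a division chosen after its values had been seen, because its levels in CPM of Mt4 and of the gland list were the highest. Mt4 molecules were in spots with a gland marker UMI and in spots without one: at 3000 UMIs the mean was 5.92 with and 4.37 without in the mixed library. It was 3.36 with and 3.5 without in replicate 3, and 3.68 with and 7.28 without in replicate 4. With Spink1 left out of the gland list the means were 5.38 with and 4.97 without, 3.36 with and 3.5 without, and 4.00 with and 6.31 without in the same libraries. The direction thus differed between libraries in region 8. In region 1, Mt4 had a higher mean in spots with a gland marker UMI in each library. The means were 2.60 with and 1.97 without in the mixed library, 4.71 and 2.40 in replicate 3, and 5.97 and 3.09 in replicate 4. In region 6 they were 1.63 and 0.90, 1.86 and 1.21, and 2.13 and 2.65 in the same libraries. In region 11 the Mt4 means were 0.55 with and 0.17 without in the mixed library, 0.22 and 0.39 in replicate 3, and 2.05 and 0.33 in replicate 4. Spots with a gland marker UMI made up 38.7%, 33.3% and 71.7% of region 11 in these libraries. Across the spots of region 8, Mt4 had a rho of -0.13 with the gland list, with -0.38 to 0.06 in single libraries, and of -0.50 with the fibroblast list. With the list of decidual genes it was 0.48, and all 3 libraries were positive (0.38 to 0.55). For Mt3 the values were -0.15 with the gland list, -0.48 with the fibroblast list and 0.31 with the decidual list. A spot without a gland UMI at this depth can still hold gland cells, and the part of the cell mixture in the Mt4 level of region 8 was not tested.

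Among 8544 genes with a mean of at least 10 CPM, the genes whose pattern over the 11 regions was most like each member were taken by Pearson's r of log2(CPM + 1) averaged over libraries. Mt1 was closest to Adgrf4 (an adhesion receptor, 0.98), Pacs2 (a protein of membrane traffic, 0.97), Vasn (a membrane protein that binds TGF-beta, 0.97), Hs1bp3 and Cmtm8 (0.96 each). Mt2 was closest to Engase (an enzyme that cleaves N-glycans, 0.95) and then to Mt1 (0.94). Mab21l4 (0.94), the lipoprotein receptor gene Olr1 (0.94) and the pantothenate kinase gene Pank3 (0.92) followed. Mt3 was closest to Coch (an extracellular matrix protein, 0.97) and then to Mt4 (0.95), with Ankrd10 (0.94), Engase (0.93) and Cd300lg (0.92) after them. Mt4 was closest to Ankrd10 (0.96), Mt3 (0.95), Coch (0.91), Dennd2a (0.90) and the trypsin inhibitor gene Spink1 (0.88), which is in the gland list. Mt3 and Mt4 were thus each among the 5 genes most like the other, and Mt1 was among those of Mt2, but Mt2 (0.94) was not among the 5 of Mt1. Between the other members r was 0.71 between Mt1 and Mt3, 0.49 between Mt1 and Mt4, 0.86 between Mt2 and Mt3 and 0.70 between Mt2 and Mt4. Engase, Adgrf4, Pacs2, Cmtm8, Mab21l4, Olr1, Cd300lg and Dennd2a had taken part in the clustering, so their pattern over regions was in part given.

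The zinc transporters and the zinc sensor were examined in region 1, where Mt1, Mt2 and Mt3 were highest, and in region 8, where Mt4 was. The counts of this and the following lists stand beside 6.45% of all tested genes called higher and 9.98% lower in region 1, and 10.5% higher and 2.47% lower in region 8. Of 23 listed zinc genes 20 passed the filter on low counts. In region 1, edgeR called 0 of 20 in either direction, with a median of 0.05 against 0.00 over all genes tested, and 11 had an unadjusted p under 0.05. Without the minimum fold change 6 were higher and 2 lower, and DESeq2 called 0 higher and 2 lower. The values nearest to a call on the higher side were 0.97 for Slc39a11 and 0.84 for Slc39a13, a transporter of the secretory pathway. Mtf1, the zinc-sensing factor itself, had 12.7 ± 2.27 CPM in region 1 and a value of 0.01. Slc30a1, the zinc exporter of the plasma membrane and a known target of that factor, had 20.1 ± 1.69 CPM and a value of -0.44 there.

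In region 8 the zinc list had 2 genes higher and 2 lower of 20, with a median of -0.07 against -0.02 over all genes. Slc39a4, the importer best known from the gut, had 19.98 ± 0.19 CPM in region 8 (4.10 ± 0.38, adjusted p = 3.15e-10). Slc39a8, an importer of zinc and manganese, was higher too (1.53), while the importer gene Slc39a10 (-1.15) and the vesicle transporter gene Slc30a2 (-1.11) were lower. Seen after the values were known, region 7 stood apart from both, with 9 of 20 genes of the zinc list higher and 0 lower where 14% of all genes were called higher. There Slc39a14, an importer of zinc and iron, had 405 ± 145 CPM (3.44 ± 0.11, adjusted p = 1.42e-22), and Slc30a1 had 64.9 ± 10.3 CPM (1.44 ± 0.14, adjusted p = 2.57e-10). Slc30a1 was also higher in region 5 (1.12), where Mt1 was higher too, and in region 10 (1.79), where Mt1 was not called. Further zinc genes were higher in region 5, where 14% of all genes were called higher. They were Slc39a2 (4.69), Slc39a6 (1.83), Slc39a10 (1.76), Slc39a14 (1.66) and Slc30a4 (1.16). In region 1, where Mt1 was highest, Slc30a1 had a value of -0.44, so it did not follow the Mt1 level over all regions.

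Copper genes included 2 of 14 called higher in region 1 and 1 lower, with a median of 0.30 against 0.00 over all genes and 16.4% of all genes called in either direction, a share near that of the list. Atp7b, a copper-transporting ATPase, had 41.2 ± 6.45 CPM there (2.88 ± 0.16, adjusted p = 2.55e-16), and the copper importer gene Slc31a1 had 99.3 ± 3.39 CPM (1.08 ± 0.11, adjusted p = 3.26e-10). Heph, a copper-dependent ferroxidase, was lower (-1.07). These calls were not particular to region 1. In region 7 Atp7b (2.58) and Slc31a1 (2.30) were higher and Heph (-2.61) was lower, and in region 5 the values were 1.44, 1.10 and -2.53. The copper list in region 8 had 3 of 14 higher and 0 lower by edgeR, with a median of -0.17. Those higher were Cp, the copper carrier ceruloplasmin (4.24), Heph (1.29) and Steap4 (1.22), a metalloreductase, while 5 further genes had an unadjusted p under 0.05 and no call, and without the minimum fold change 4 were lower. Without replicate 3 the call of Heph in region 1 was lost, leaving 0 copper genes lower there.

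For iron, the storage gene Fth1 had 26943 ± 2814 CPM in region 1 and was higher (1.41 ± 0.12, adjusted p = 9.76e-12), while Trf (transferrin, -2.21) and Slc40a1 (the iron exporter ferroportin, -1.67) were lower, 1 and 2 of 11 tested genes. In region 8 both transport genes were higher, Slc40a1 at 3.24 and Trf at 1.84, as was Lcn2 (3.55), which binds bacterial iron carriers, and 0 of 11 were lower. The Lcn2 mean of 116 CPM had an SD of 198, so its level varied widely between libraries. Fth1 was not called in region 8 (0.22). As in region 1, Fth1 was higher in region 7 (1.26), and Trf (-1.68) and Slc40a1 (-2.91) were lower there.

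Genes that respond to glucocorticoids or progesterone were called higher in 4 of 11 cases and lower in 1 in region 1, with a median of 0.75 against 0.00. Hsd11b1, which regenerates active glucocorticoid, had 425 ± 146 CPM (2.62 ± 0.13, adjusted p = 6.64e-17), and Hsd11b2, which inactivates it, was lower (-1.97). The glucocorticoid-induced genes Fkbp5 (1.97) and Sgk1 (1.62) and the progesterone-responsive factor Hand2 (1.52) were higher. The rest of the list was not called in region 1, namely Tsc22d3 (0.85), Pgr (0.75), Klf9 (0.51), Dusp1 (0.18), Nr3c1 (-0.03) and Per1 (-0.06). Each of the genes called in region 1 was called in the same direction in region 7. There Hsd11b1 had 3.52, Hsd11b2 -3.80, Fkbp5 1.46, Sgk1 2.01 and Hand2 2.47, so this pattern was not particular to region 1. The one gene called in region 8 was Hsd11b2, with 267 ± 65.9 CPM (4.67 ± 0.17, adjusted p = 2.07e-21), while Hsd11b1 was not called (0.50). The values for Fkbp5 and Sgk1 in region 8 were 0.59 and -0.12. Hsd11b2 was also higher in region 6 (4.01), region 11 (3.09), region 3 (2.29) and region 2 (1.53). It was lower in region 4 (-3.30), region 5 (-3.51) and region 10 (-2.32) as well.

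Among oxidant response genes 3 of 16 were higher in region 1 and 1 was lower, beside 6.45% and 9.98% of all genes, with a median of 0.29 against 0.00. Srxn1 (sulfiredoxin, 1.82), Gsr (glutathione reductase, 1.501) and Gpx3 (secreted glutathione peroxidase, 1.47) were higher, and the quinone reductase gene Nqo1, at 0.639 ± 0.363 CPM, was lower. In region 8, beside 10.5% higher and 2.47% lower of all genes, there were 2 higher and 2 lower, namely Gpx2 (5.21) and Gpx3 (1.03), and Txn1 (thioredoxin, -1.16) and Gclc (glutamate-cysteine ligase, -1.43). Hypoxia-responsive genes had 2 of 11 higher and 4 lower in region 1 (median -0.72), and 1 higher and 3 lower in region 8 (median -0.93), beside the same shares of all genes. Vegfa (1.29), the vessel growth factor, and the glucose transporter gene Slc2a1 (1.03) were the ones higher in region 1, and Slc2a1 (1.37) again in region 8. The lower ones in region 1 were the collagen hydroxylase gene P4ha1 (-1.69), the oxygen-sensing hydroxylase gene Egln3 (-2.43), Ankrd37 (-1.40) and the glycolysis regulator gene Pfkfb3 (-1.07). Those in region 8 were Egln3 (-2.42), Ankrd37 (-2.39) and the glycolytic gene Pgk1 (-1.22).

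Of 7 tested genes around the cluster 1 was higher and 0 lower in region 1 (median 0.35), and the same counts stood in region 8 (median -0.07). These counts are near the shares of all tested genes called, 16.4% and 12.9%. The gene called was Gnao1, a G protein subunit, with 1.25 ± 0.18 in region 1 and 1.06 ± 0.27 in region 8. Gnao1 was also higher in region 9 (1.73) and region 4 (1.49), where Mt3 and Mt4 were called lower. It was lower in region 5 (-1.30), region 7 (-2.33) and region 10 (-3.42). By an unadjusted p under 0.05 in edgeR, 5 of the 7 passed in region 1 and 5 in region 8. Of the cornified envelope and stratified epithelium genes, the kind of tissue from which Mt4 is best known, 6 of 19 passed the filter. The one called in region 8 was Sprr2d (1.80), at 7.08 ± 1.82 CPM. In region 1 there were 4 higher, namely Sprr2h (3.90), Sprr2d (4.601), Klk7 (2.07) and Klk10 (2.40), and Sprr2h had 580 ± 230 CPM. The list was higher still in region 7, with 5 of 6 called and a summed level of 1851 CPM, where Mt4 was not called. The summed level was 683 CPM in region 1 and 103.7 CPM in region 8. Region 1 was thus high in both Mt4 and this list, region 8 was highest in Mt4 with a low sum, and region 7 was highest in the list. In region 5 Sprr2h (3.04), Sprr2d (1.57), Klk7 (3.49), Klk8 (4.35) and Klk10 (4.93) were higher, while Mt4 was lower (-1.57). Klk7 (3.06), Klk8 (2.56) and Klk10 (3.11) were also higher in region 10, where Mt4 was lower (-1.06). In region 6, where Mt4 was higher (3.22), the one gene of the list called was Klk7 (2.00).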

How the data were processed

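The deposited files held raw UMI counts per gene and spot for 3 Visium libraries, made by the authors with Space Ranger 1.2.2 per the file headers. Cell Ranger and the build mm10 are named in the submitters' processing notes. No other per-sample column was present. The members and all gene lists (24 lists, 270 symbols, 269 of them in the files) were chosen with earlier results of these data known.

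Spots with at least 1000 UMIs were kept. All genes were split by chance into a set of 16142 and a set of 16143, and listed genes were barred from clustering. Spots were clustered by the Leiden method (igraph 0.11.9, leidenalg 0.10.2, scikit-learn 1.9.0) on 1500 variable genes of the first set, with 20 principal components, 15 neighbours and resolution 0.6. Counts were summed by region and library (at least 20 spots), and the second set with the listed genes was tested in edgeR 4.0.16 (TMM scaling, library as a block, 6312 genes after the filter on low counts). Ratios of members were tested with limma 3.58.1 on log2 CPM differences with a prior count of 0.5. Tests were tried on simulated data for region 1 against the other regions on 6312 genes, where 100% of genes changed 4-fold were called, 47.8% of those changed 2-fold and 0.0179% of those left alone. The simulated counts had no differences between libraries apart from depth, and no regional change but those set in region 1. These shares thus describe a simpler setting than the data. For thinning, each spot was drawn down to 3000 UMIs. Shares have exact Clopper-Pearson intervals at 95% confidence, which cover counting error only.

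Every member was described in all regions. The other genes named are the 5 most like each member and the called genes of the lists in regions 1 and 8, and genes named for other regions or without a call were chosen after their values were seen. Alternatives were relative log expression scaling, DESeq2 1.42.0, pooled other spots, omission of the filter, of the block or of the minimum fold change, the other gene set, resolutions of 0.3 and 1.0, no minimum or a minimum of 5000 UMIs, and each library left out. Promoters came from RefSeq (GRCm38.p6) and gene positions from GENCODE M21. Python 3.11.15 and R 4.3.3 were used.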

Additional observations from a re-analysis of the deposited data

How the results depend on the processing

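Relative log expression scaling and DESeq2 changed no call of a member. Regions were matched between clusterings by shared spots, and the match was poor for some, with a Jaccard index of 0.13 for region 11 at a minimum of 5000 UMIs, where it was matched to the same region as region 6, and of 0.16 for region 11, 0.21 for region 9 and 0.37 for region 1 at resolution 0.3. Values there describe partly other spots. The few UMIs of Mt3 and Mt4 in region 2 limit their values there, and 3 libraries limit every p. Where signs turned, the cause was not tested.

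Every region came from the same 3 libraries, so the library entered each fit as a block. Without the replicate block, Mt2 in region 8 had 0.98, Mt3 in region 9 had -0.93 (adjusted p = 0.153), Mt4 in region 10 had an adjusted p of 0.0685, and 1 region was called higher for Mt3 over Mt4, against 2 with it.

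At resolution 0.3, Mt1 turned to -1.74 in region 6 and 0.45 in region 9, Mt2 to -1.12 in region 6, and Mt3 to 1.05 in regions 4 and 9 and to -0.73 in region 6. Mt4 turned to 0.66 in region 3 and 0.51 in regions 4 and 9. In region 7 Mt4 was called higher at this resolution (2.88) and at resolution 1.0 (2.08). At resolution 0.3 the ratio of Mt3 to the pair was 0.68 in region 4 and 1.24 in region 7. That of Mt4 to the pair was 2.21 in region 3, 0.076 in region 4 and 0.89 in region 7. Mt4 had 3 regions lower, and Mt3 over Mt4 had 1 higher. At resolution 1.0 the ratio of Mt3 to the pair was 1.18 in region 7, that of Mt3 to Mt4 was -1.02 in region 1, and 1 region was higher for Mt3 over Mt4. With the other gene set Mt4 was 0.14 in region 9 and lower in 3 regions, and Mt3 over Mt4 was higher in 1.

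With a minimum of 5000 UMIs, Mt3 turned to 0.94 in region 9 and 1.43 in region 11, Mt4 to 1.72 in region 9, and Mt1 was lower in 2 regions. Against pooled other spots, Mt3 was -0.050 in region 7, Mt4 was -1.29 in region 7 and -0.67 in region 11, Mt2 was higher in 1 region, and Mt3 was higher in 2 and lower in 7. Without the minimum fold change Mt2 was higher in 5 regions, 6 zinc genes were higher and 2 lower in region 1, 7 copper genes were higher in region 1 and 4 lower in region 8. In region 1 relative log expression scaling called 1 zinc gene lower and DESeq2 called 2.

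Leaving out each library in turn gave 1 to 3 regions higher for Mt2, 1 to 3 higher and 1 to 3 lower for Mt3 over Mt4, 1 to 2 zinc genes higher and 1 to 3 lower in region 8, 0 to 1 copper genes lower in region 1 and 1 to 3 higher in region 8.

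Thinned to 1000 UMIs, the share of spots was 89.6% for Mt1, 50.3% for Mt2, 22.2% for Mt3 and 16.8% for Mt4. Without thinning it was 95.4% for Mt2, 59.6% for Mt3 and 49.4% for Mt4. At 1000 UMIs the rank correlation across spots was 0.49 for Mt1 with Mt2, 0.46 for Mt1 with Mt3, 0.28 for Mt1 with Mt4, 0.34 for Mt2 with Mt3, 0.28 for Mt2 with Mt4 and 0.45 for Mt3 with Mt4. Without thinning it was 0.91 for Mt1 with Mt2, 0.63 for Mt1 with Mt3, 0.65 for Mt2 with Mt3, 0.51 for Mt2 with Mt4 and 0.76 for Mt3 with Mt4.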
